A study of Saccharomyces cerevisiae with 32 samples.

Results

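Yeast lacking eIF2A (*eif2aΔ*) were compared with yeast lacking Tma46 (*tma46Δ*), a contrast of 2 deletions of translation factors with no wild type on either side. The libraries were chosen by the genotype in their labels. Each strain had 4 cultures, and each culture gave 1 RNA-Seq and 1 Ribo-Seq library, so 16 of the 32 libraries of the series analysed here belong to the contrast. RNA-Seq measured the level of each mRNA, and Ribo-Seq counted the mRNA fragments that ribosomes protected from nuclease. Both strains share the BY4742 background (*MATα his3Δ1 leu2Δ0 lys2Δ0 ura3Δ0*) and came from the Yeast Gene Deletion Collection, the first without *YGR054W*, which encodes eIF2A, and the second without *TMA46*. Each genotype was given as 1 collection strain, so the 4 replicates are cultures, and the deletion cannot be told apart from any other difference between the 2 strains. Cells were harvested during exponential growth. The study gives YPD medium and names cycloheximide in its buffers, while the labels name YPD or SD for all libraries alike and cycloheximide in the medium before harvest. The RNA of both assays came from 1 lysate per culture.

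eIF2A is a factor that can bring initiator tRNA to the small ribosomal subunit without the usual ternary complex, and it has been studied mainly for start sites other than AUG and for internal initiation. Tma46 is the partner of the GTPase Rbg1, and the pair binds translating ribosomes and helps them through stretches rich in arginine and lysine. Neither gene is essential in yeast.

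The labels place *eif2aΔ* replicates 1 to 4 in batches 3, 4, 5 and 6 and *tma46Δ* replicates 1 to 4 in batches 1, 2, 3 and 5. Only 2 batches held both strains, batch 3 with *eif2aΔ* replicate 1 and *tma46Δ* replicate 3, and batch 5 with *eif2aΔ* replicate 3 and *tma46Δ* replicate 4. The wild-type (*wt*) and *stm1Δ* libraries entered the fits to estimate the spread, and *wt* also linked the batches. Through this link *wt* replicates 1 to 4 carried weights of 0.14, 0.14, -0.06 and -0.23 in the fold change by the design. The weights were 0.40, 0.23, 0.37 and 0 for *eif2aΔ* replicates 1 to 4 and -0.14, -0.14, -0.34 and -0.37 for *tma46Δ*. A fold change is thus not a plain difference of the 2 strain means. In the resulting contrast *eif2aΔ* replicate 4, alone with an *stm1Δ* culture in its batch, had a weight of 0, so its values below are a check that did not enter the fold change. RNA-Seq libraries held 4555952 to 5567240 counts on genes in *eif2aΔ* and 5060413 to 6717295 in *tma46Δ*. Ribo-Seq libraries held 1611700 to 3221320 in *eif2aΔ* and 2264170 to 4069964 in *tma46Δ*. Levels are given in CPM, counts scaled to library size with TMM factors, and 10 CPM was at least 45.6 reads of mRNA and 16.1 footprint reads. The markers of the labelled mating type were present. The 4 MATα genes summed to 749 to 1663 CPM in *eif2aΔ* RNA-Seq and 1163 to 1402 CPM in *tma46Δ* RNA-Seq, and the 6 MATa genes to 31.9 to 40.3 CPM in *eif2aΔ* and 24.6 to 34.9 CPM in *tma46Δ*. None of these 6 passed the filter on low counts, which asked for 10 CPM in at least 4 libraries of each assay.

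The deleted genes followed the labels. *TMA46* (YOR091W) had 188, 199, 173 and 196 CPM in *eif2aΔ* RNA-Seq, against counts of 0, 0, 0 and 1 read in *tma46Δ*. In Ribo-Seq it had 205, 214, 205 and 214 CPM in *eif2aΔ*, against 1, 0, 2 and 1 reads in *tma46Δ*. *YGR054W* had 1, 2, 2 and 1 reads in *eif2aΔ* RNA-Seq, against 252, 272, 292 and 267 CPM in *tma46Δ*. Its footprints were 3, 1, 3 and 7 reads in *eif2aΔ*, against 331, 296, 305 and 358 CPM in *tma46Δ*. At most 0.700% of the *YGR054W* level and 0.437% of the *TMA46* level remained in any library of its own deletion. Of the genes beside them, *MCO32* did not pass the filter, and *PTC5*, *ECM3* and *MUP1* were not called in either assay. Their log2 fold changes were 0.14, -0.02 and -0.17 on mRNA and -0.00, -0.41 and -0.19 on footprints, where *ECM3* (FDR 0.241) and *MUP1* (FDR 0.364) had an unadjusted p under 0.05.

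Few other genes differed. All fold changes below are log2, *eif2aΔ* minus *tma46Δ*, from edgeR's quasi-likelihood test with TMM scaling and terms for strain and batch, and a gene is called at a false discovery rate (FDR, Benjamini-Hochberg over all 4625 genes tested) under 0.05. In RNA-Seq 11 genes were called, or 0.238% of those tested, of which 4 were higher (0.0865%) and 7 lower (0.151%) in *eif2aΔ*. In Ribo-Seq 17 genes were called (0.368%), 8 higher (0.173%) and 9 lower (0.195%). Both deleted genes are in each count, which leaves 9 and 15 others. An unadjusted p under 0.05 was reached by 640 genes (13.8%) on mRNA and 626 (13.5%) on footprints. The median standard error of a fold change was 0.11 for mRNA and 0.13 for footprints. Ribosome occupancy (RO), the footprint level relative to the mRNA level, was tested by asking whether the strain difference depended on the assay, with a term for each culture. It gave 2 called genes (0.0432%), both higher in *eif2aΔ*, while 286 genes (6.18%) had an unadjusted p under 0.05. The edgeR RO test called 0 genes lower (0%), and DESeq2 also called 2 higher and 0 lower. Some other settings called more genes on RO, most of them lower, with 24 lower in the same-batch pairs alone, 45 without the filter and 160 after ComBat-seq, against 2, 5 and 120 higher. Every one of the 9, 15 and 2 calls had the same sign in both same-batch pairs, which are part of the fit. The libraries are bulk cultures, in which fewer cells with an mRNA and less of it per cell cannot be told apart.

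**Figure D1:**
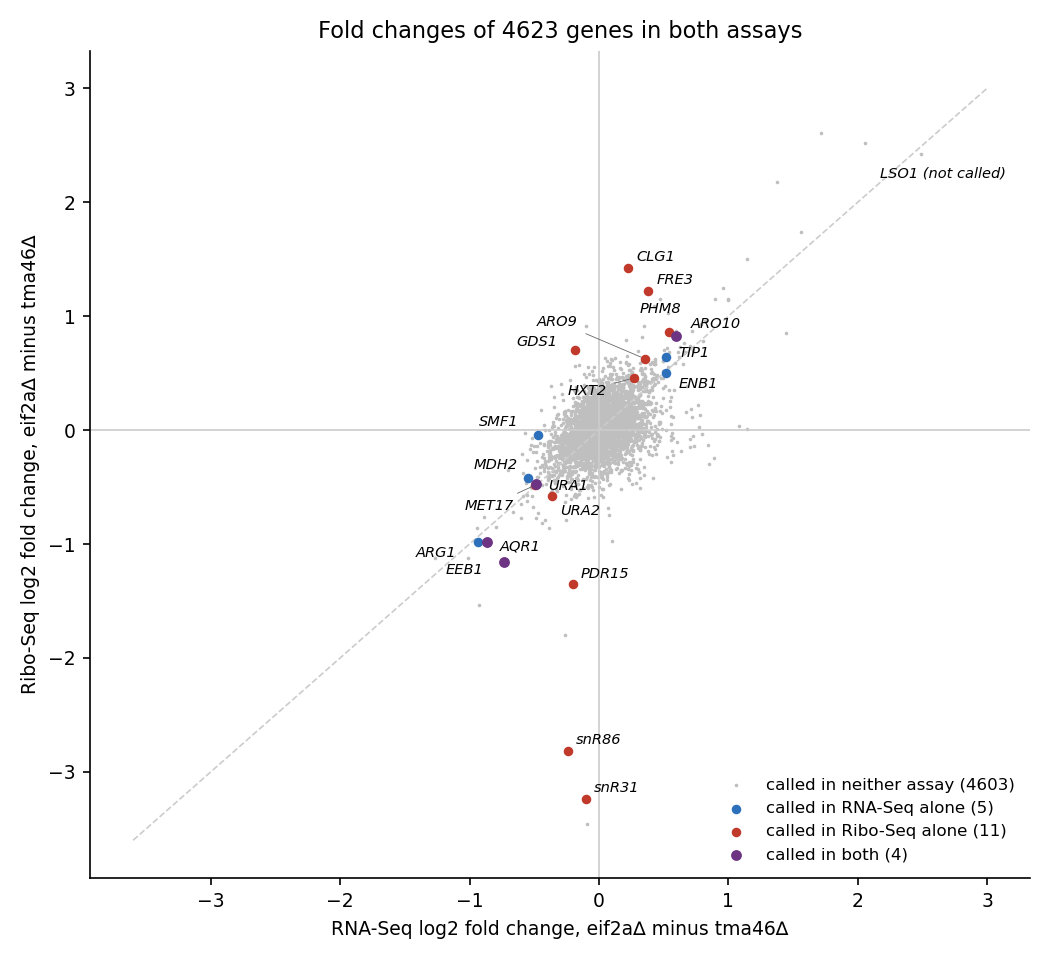
Log2 fold change, *eif2aΔ* minus *tma46Δ*, in RNA-Seq (horizontal axis) and in Ribo-Seq (vertical axis) for 4623 genes, both deleted genes left out; each point is a gene, and the dashed line marks equal changes. Of the 20 called genes, 5 were called in RNA-Seq alone, 11 in Ribo-Seq alone and 4 in both. The small nucleolar RNAs *snR31* and *snR86* lie farthest from the dashed line among the called genes, and *CLG1*, *GDS1* and *PDR15* also lie far from it.

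The 2 genes with changed RO were *CLG1* (YGL215W), which encodes a cyclin-like partner of the kinase Pho85, and *GDS1* (YOR355W), which is needed for growth on glycerol. Both carried more footprints per mRNA in *eif2aΔ*, and neither mRNA differed past the threshold. The sequences around their start codons are shown because the footprint changes sit on these reading frames. They are from the R64 genome with RefSeq coordinates, written 5′ to 3′ on the coding strand, with the start codon in capitals. The *CLG1* window is chrVII:87957-87986 and the *GDS1* window chrXV:1005113-1005142, both on the plus strand.
CLG1: caacaaaccccccttcatatagaaATGgct
GDS1: aaaaattgattagaagaacttataATGgca
Neither gene has an ATG on the coding strand in the 250 bases before its start codon, which holds for 11.1% of the 4617 tested nuclear coding genes, against a median of 3 ATG in those bases. Among the named genes the same holds for *EEB1*, called lower in both assays, and for *ECM3* and *SBP1*, which were not called.

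*CLG1* had 183, 208, 205 and 182 CPM in the *eif2aΔ* Ribo-Seq libraries, against 58.2, 63.1, 87.4 and 64.1 CPM in the *tma46Δ* libraries. The groups are far apart, and the lowest *eif2aΔ* library has over 2 times the level of the highest *tma46Δ* library. Its fold change was 1.43 (SE 0.12, FDR 5.15e-06 by edgeR), with 1.06 in the pair of batch 3 and 1.66 in that of batch 5. *CLG1* mRNA had 301, 329, 254 and 313 CPM in *eif2aΔ*, against 210, 223, 263 and 258 CPM in *tma46Δ*, and *eif2aΔ* replicate 3 lies within the *tma46Δ* range (0.23, SE 0.11, FDR 0.379). The log2 RO of *CLG1* was -0.72, -0.66, -0.31 and -0.78 in *eif2aΔ*, against -1.84, -1.81, -1.58 and -1.99 in *tma46Δ*. The RO groups do not overlap, as for 1.56% of genes with *eif2aΔ* above, and the fitted RO difference was 1.21 (SE 0.14, FDR 0.000114).

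*GDS1* had 276, 242, 247 and 284 CPM in *eif2aΔ* Ribo-Seq, against 144, 140, 152 and 158 CPM in *tma46Δ*. Again the groups do not overlap, as for 119 genes (2.57% of those tested) with *eif2aΔ* above in Ribo-Seq. The fold change of *GDS1* footprints was 0.70 (SE 0.09, FDR 0.0014), with 0.86 and 0.65 in the pairs of batches 3 and 5. Its mRNA had 253, 267, 220 and 256 CPM in *eif2aΔ*, against 252, 264, 292 and 281 CPM in *tma46Δ*, with overlapping groups (-0.18, SE 0.09, FDR 0.394). The log2 RO of *GDS1* was 0.13, -0.14, 0.17 and 0.15 in *eif2aΔ*, against -0.81, -0.91, -0.94 and -0.83 in *tma46Δ*, and the fitted difference was 0.89 (SE 0.12, FDR 0.000349). The footprint and RO calls of *CLG1* and *GDS1* held whichever 1 culture was left out, with RO FDR values up to 0.0144 for *CLG1* and 0.0263 for *GDS1*. Of these 8 fits, that without *eif2aΔ* replicate 4 leaves the contrast as it was, and those without *eif2aΔ* replicate 3 or *tma46Δ* replicate 4, the pair of batch 5, are nearly the same fit. The contrasts with *wt*, which share the *wt* libraries, put the footprint change of *CLG1* at 1.64 in *eif2aΔ* and 0.21 in *tma46Δ*, and that of *GDS1* at 0.84 in *eif2aΔ* and 0.14 in *tma46Δ*.

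**Figure D2:**
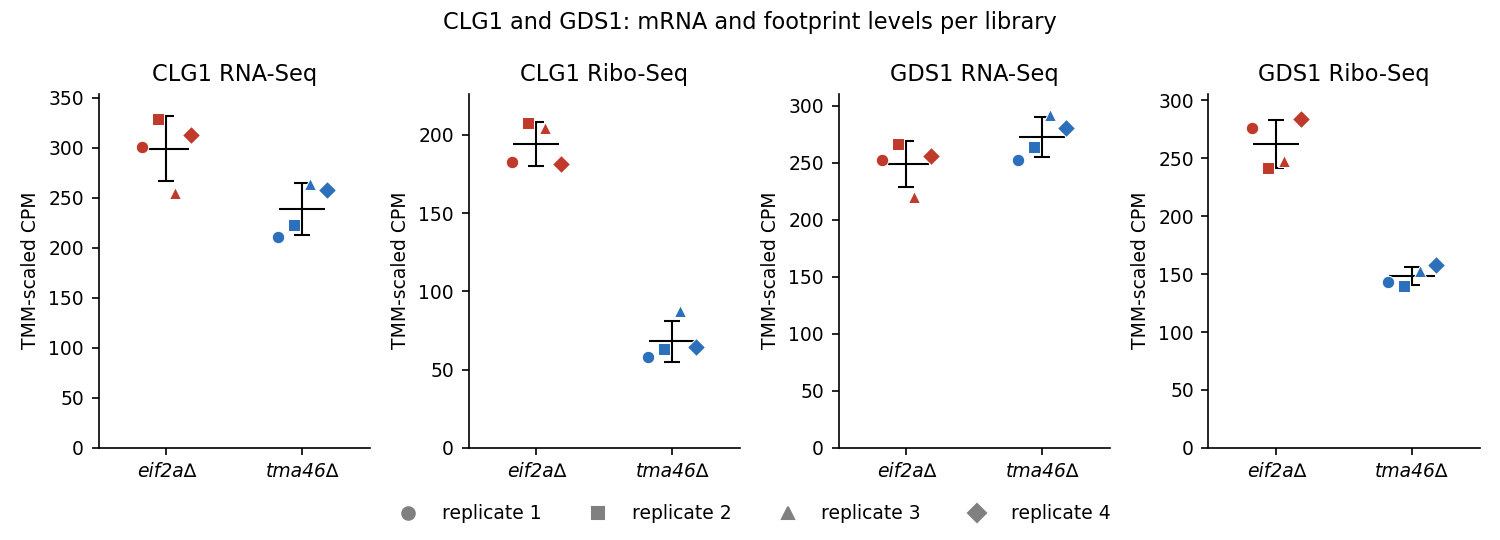
TMM-scaled CPM of *CLG1* and *GDS1* in both assays, with *eif2aΔ* on the left and *tma46Δ* on the right of each panel; each symbol is a culture (replicates 1 to 4), the long bar is the mean and the whiskers are 1 SD (n = 4). The Ribo-Seq groups are separate for both genes, with *CLG1* at 182 to 208 CPM in *eif2aΔ* and 58.2 to 87.4 CPM in *tma46Δ*, while the RNA-Seq groups overlap.

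*PDR15* (YDR406W), a plasma membrane ABC transporter of the multidrug resistance network, moved the other way on footprints. It had 15.8, 13.1, 8.23 and 15.8 CPM in *eif2aΔ* Ribo-Seq, against 34.2, 34.5, 38.4 and 22.1 CPM in *tma46Δ*. No *eif2aΔ* library reached the lowest *tma46Δ* library, replicate 4, and the fold change was -1.35 (SE 0.21, edgeR FDR 0.00601). *PDR15* mRNA had 67.2, 71.5, 53.0 and 64.6 CPM in *eif2aΔ*, against 68.4, 75.2, 81.8 and 70.2 CPM in *tma46Δ*, and the groups overlap (-0.20, FDR 0.473). The RO difference of -1.17 (SE 0.23, FDR 0.0784) missed the threshold although the RO groups did not overlap, which held with *eif2aΔ* below for 2.25% of all genes. The footprint call of *PDR15* was lost without either culture of batch 5, *eif2aΔ* replicate 3 or *tma46Δ* replicate 4 (FDR 0.0593 and 0.061), at a fold change of -1.32.

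*EEB1* (YPL095C), which encodes an acyltransferase that makes medium-chain ethyl esters, was lower in both assays. Its mRNA had 52.0, 47.7, 55.4 and 75.4 CPM in *eif2aΔ*, against 74.5, 83.8, 99.0 and 87.4 CPM in *tma46Δ* (-0.74, SE 0.10, FDR 0.0106). *EEB1* footprints had 24.7, 21.3, 19.5 and 39.0 CPM in *eif2aΔ*, against 56.2, 44.3, 54.9 and 50.4 CPM in *tma46Δ* (-1.16, SE 0.16, FDR 0.00169). *EEB1* replicate 4 of *eif2aΔ* is the highest of its strain in both assays and overlaps *tma46Δ* in RNA-Seq only. Against *wt*, *EEB1* footprints were at -1.50 in *eif2aΔ* and -0.34 in *tma46Δ*. Without *eif2aΔ* replicate 3 or *tma46Δ* replicate 4 the *EEB1* footprint FDR was 0.0585 and 0.0606 at -1.04, and the RNA-Seq call was lost without any of 4 cultures (*eif2aΔ* replicates 1 and 3, *tma46Δ* replicates 3 and 4), at FDR values of 0.0716 to 0.0873.

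*URA2* and *URA1*, which encode enzymes of pyrimidine synthesis, were lower in *eif2aΔ*. In this pathway Ura2 makes carbamoyl phosphate and joins it to aspartate, Ura4 closes the ring, Ura1 oxidizes dihydroorotate, and Ura5 adds ribose phosphate. The regulator Ppr1 switches several of these genes on when intermediates of the pathway build up, and the last enzyme, Ura3, is missing from both strains through *ura3Δ0*. *URA2* (YJL130C) had 1381, 1447, 1445 and 1522 CPM in *eif2aΔ* Ribo-Seq, against 2192, 2121, 2004 and 2287 CPM in *tma46Δ*. The groups are apart by more than the spread of either, and the fold change of -0.58 (SE 0.07, edgeR FDR 0.00124) kept its call without any 1 culture, with FDR values up to 0.0152. *URA2* mRNA had 730, 713, 653 and 765 CPM in *eif2aΔ*, against 823, 907, 909 and 934 CPM in *tma46Δ*, which do not overlap either, but the change of -0.36 (SE 0.08, FDR 0.137) was not called.

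*URA1* (YKL216W) was called in both assays. It had 711, 656, 735 and 842 CPM in *eif2aΔ* RNA-Seq, against 1071, 968, 988 and 979 CPM in *tma46Δ* (-0.49, SE 0.08, FDR 0.0331). *URA1* footprints had 1067, 1043, 1039 and 1193 CPM in *eif2aΔ*, against 1509, 1318, 1505 and 1459 CPM in *tma46Δ* (-0.47, SE 0.07, FDR 0.00741). The *URA1* groups overlap in neither assay, as for 2.57% of genes on mRNA and 3.24% on footprints with *eif2aΔ* below. Its footprint call was lost without *eif2aΔ* replicate 3, *tma46Δ* replicate 3 or *tma46Δ* replicate 4 (FDR 0.0544 to 0.061), and its RNA-Seq call without any 1 culture other than *eif2aΔ* replicate 4 (FDR 0.101 to 0.181). Other pathway genes, named after their values were seen, were not called. *URA4* was at -0.39 in RNA-Seq (FDR 0.152) and -0.40 in Ribo-Seq (FDR 0.0758), *URA5* at -0.22 and -0.14, *URA6* at -0.21 and -0.36, and *PPR1* itself at -0.19 and -0.20.

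The letters that Ppr1 recognizes, CGGNNNNNNCCG, occur in the 500 bases before the start codon of 129 of the 4617 tested nuclear coding genes (2.79%) on either strand, and 7 genes (0.152%) have 2 or more matches. *URA1* has 2 matches, shown in capitals in R64 sequence with RefSeq coordinates, at chrXI:24995-25022 and chrXI:25026-25053. Between the end of the match and the start codon lie 200 and 169 bases.
URA1 site A: ttcttcacCGGGCTTTGCCGaaggttat
URA1 site B: acgatcttCGGCATTCGCCGaaaatttt
*MDH2* and *PHM8*, named below, have 3 matches each, which share triplets with other matches, and *URA2* has none. A match is a run of letters and was not tested as a binding site.

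**Figure D3:**
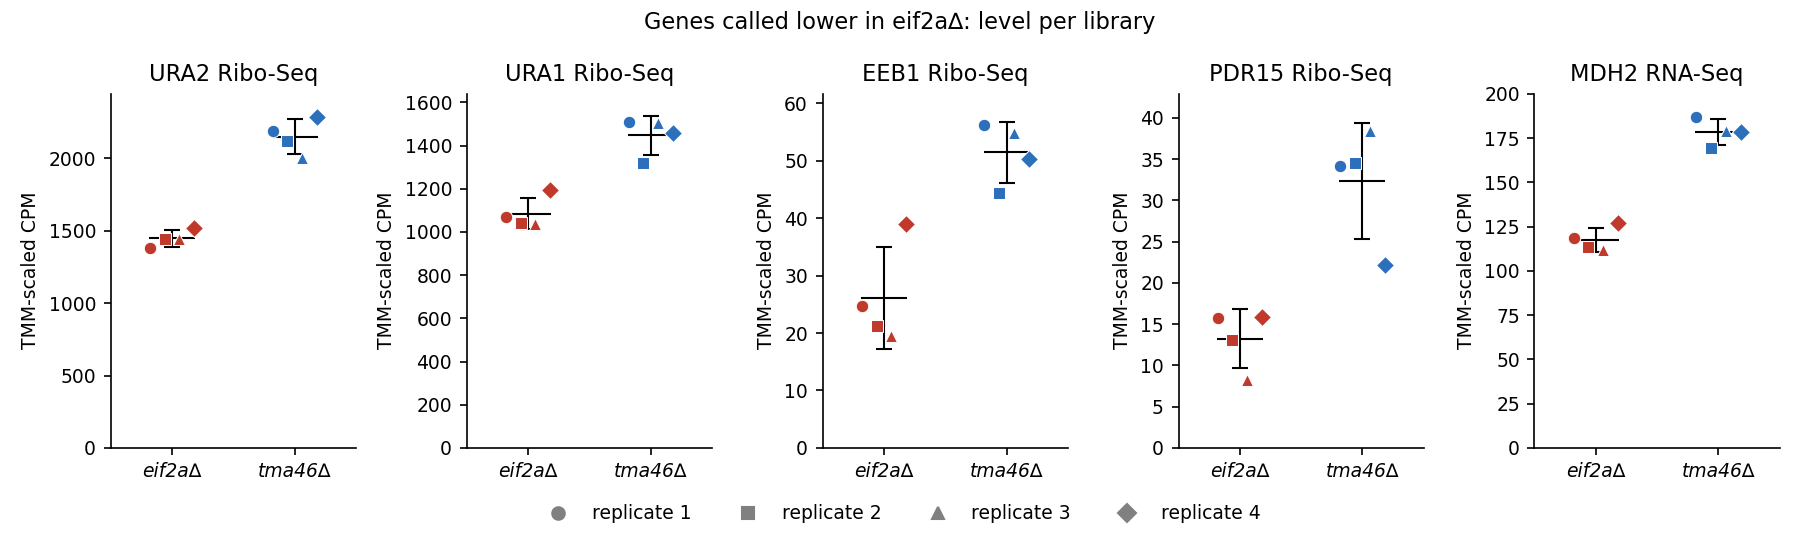
TMM-scaled CPM of 5 genes called lower in *eif2aΔ* (left of each panel) than in *tma46Δ* (right): *URA2*, *URA1*, *EEB1* and *PDR15* in Ribo-Seq and *MDH2* in RNA-Seq; symbols are cultures, bars are means and whiskers are 1 SD (n = 4). In each panel every *eif2aΔ* culture lies below every *tma46Δ* culture, as with *MDH2* at 112 to 127 CPM in *eif2aΔ* and 169 to 187 CPM in *tma46Δ*.

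*MDH2* (YOL126C), the cytosolic malate dehydrogenase of gluconeogenesis, had 119, 113, 112 and 127 CPM in *eif2aΔ* RNA-Seq, against 187, 169, 179 and 178 CPM in *tma46Δ*. Its change was -0.55 (SE 0.09, FDR 0.0318), and in Ribo-Seq *MDH2* was at -0.42 (FDR 0.0742). *ARG1* (YOL058W), argininosuccinate synthetase of arginine synthesis, had 19.9, 25.1, 26.2 and 17.2 CPM in *eif2aΔ*, against 54.9, 44.6, 42.3 and 42.9 CPM in *tma46Δ* (-0.93, SE 0.17, FDR 0.0414). Its level in the *eif2aΔ* cultures was well under that of every *tma46Δ* culture, and *ARG1* footprints were at -0.99 (FDR 0.0673). The RNA-Seq call of *MDH2* was lost in 6 of the 8 fits that left out 1 culture, at FDR values of 0.072 to 0.187, and held without *eif2aΔ* replicate 2 or 4. That of *ARG1* was lost in 7 fits, at 0.115 to 0.207, and held without *eif2aΔ* replicate 4. The fold changes stayed between -0.62 and -0.48 for *MDH2* and between -1.06 and -0.85 for *ARG1*.

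*AQR1* (YNL065W), a transporter that exports amino acids and confers drug resistance, had 74.0, 65.4, 62.4 and 73.5 CPM in *eif2aΔ* RNA-Seq, against 97.0, 96.8, 107 and 156 CPM in *tma46Δ* (-0.87, SE 0.14, FDR 0.0201). Its footprints had 38.5, 29.4, 32.2 and 45.2 CPM in *eif2aΔ*, against 56.9, 52.7, 48.9 and 84.8 CPM in *tma46Δ* (-0.98, SE 0.18, FDR 0.0223). The groups overlap in neither assay, and *tma46Δ* replicate 4 is the highest library in both. Without *tma46Δ* replicate 4, *AQR1* was at -0.60 for mRNA and -0.71 for footprints, and both calls were also lost without *eif2aΔ* replicate 2, *eif2aΔ* replicate 3 or *tma46Δ* replicate 2 (FDR 0.0618 to 0.155 for mRNA and 0.0631 to 0.464 for footprints). Against *wt*, *AQR1* mRNA was at -0.54 in *eif2aΔ* and 0.33 in *tma46Δ*, neither past the threshold.

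*MET17* (YLR303W), which fixes sulfide into homocysteine, had 367, 360, 334 and 390 CPM in *eif2aΔ* Ribo-Seq, against 446, 510, 471 and 504 CPM in *tma46Δ*. These groups do not overlap, and the change was -0.48 (SE 0.09, FDR 0.03), with -0.49 (FDR 0.2) for its mRNA. *SMF1* (YOL122C), a manganese transporter, was called in RNA-Seq at -0.47 (SE 0.09, FDR 0.0414) with 62.9, 52.9, 55.8 and 68.2 CPM in *eif2aΔ*, against 62.8, 78.1, 85.9 and 80.2 CPM in *tma46Δ*. The *SMF1* groups overlap through *tma46Δ* replicate 1, and its footprints were at -0.04. The call of *MET17* was lost in 6 of the 8 fits with 1 culture less (FDR 0.0637 to 0.367) and that of *SMF1* in 7 (FDR 0.101 to 0.187).

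On the higher side stood *ARO10* (YDR380W) and *ARO9* (YHR137W), the decarboxylase and the aminotransferase that break down aromatic amino acids to fusel alcohols. Both are induced by aromatic amino acids through the activator Aro80. *ARO10* mRNA had 354, 415, 402 and 210 CPM in *eif2aΔ*, against 141, 211, 260 and 247 CPM in *tma46Δ* (0.60, SE 0.09, FDR 0.0201). *ARO10* footprints had 371, 485, 457 and 233 CPM in *eif2aΔ*, against 139, 217, 238 and 241 CPM in *tma46Δ* (0.82, SE 0.13, FDR 0.009). *ARO9* footprints had 336, 341, 318 and 212 CPM in *eif2aΔ*, against 126, 210, 217 and 215 CPM in *tma46Δ* (0.62, SE 0.11, FDR 0.016), and its mRNA was at 0.36 (FDR 0.152). Replicates 1 to 3 of *eif2aΔ* lie above all *tma46Δ* libraries in each of these 3 comparisons, while replicate 4 lies among them. Without the batch term, where replicate 4 counts like the others, the FDR was 0.232 for *ARO10* mRNA, 0.101 for its footprints and 0.119 for *ARO9* footprints, at fold changes of 0.68, 0.89 and 0.65. With 1 culture less, the call of *ARO10* footprints was lost without *eif2aΔ* replicate 3 or *tma46Δ* replicate 4 (FDR 0.144 and 0.139), and that of *ARO10* mRNA and of *ARO9* footprints in 6 of 8 fits.

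Aro80 recognizes CCG triplets, and the letters CCGNNNNNNNCCG were searched on both strands of the 500 bases before each start codon. *ARO9* has 5 matches and *ARO10* 4, counting matches that share a triplet. At least 1 match occurs in 250 of the 4617 genes (5.41%) and 2 or more in 36 (0.78%). Of the matches, 2 per gene are shown, from the stretch where triplets follow each other, at chrIV:1233868-1233896 and chrIV:1233888-1233916 for *ARO10* and chrVIII:375536-375564 and chrVIII:375556-375584 for *ARO9*, with 1 match in capitals per line.
ARO10 match 1: agggataaCCGCGGATAGCCGtcatttac
ARO10 match 3: gtcatttaCCGAAAATTGCCGaggtcatg
ARO9 match 3: aagcattgCCGATGCTTACCGagatttgc
ARO9 match 5: gagatttgCCGCGGATAACCGaaccatca
Other called genes also hold these letters, with 3 matches each in *AQR1* and *MDH2*, called lower, and 2 in *PHM8*, called higher. *HXT2*, called higher, has 1, as do *URA1*, *ARG1* and *PDR15*, called lower. The matches were not tested as binding sites.

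*PHM8* (YER037W), a nucleotidase that is induced when phosphate is short, had 43.4, 50, 47 and 26.4 CPM in *eif2aΔ* Ribo-Seq, against 28.3, 28.3, 28.4 and 22.9 CPM in *tma46Δ* (0.86, SE 0.15, FDR 0.0141). Here too replicates 1 to 3 of *eif2aΔ* are above all *tma46Δ* libraries and replicate 4 is not, and without the batch term *PHM8* was at 0.60 (FDR 0.151). *PHM8* lost its call without *eif2aΔ* replicate 2 or 3 or *tma46Δ* replicate 2 or 4 (FDR 0.0546 to 0.236). *HXT2* (YMR011W), a high-affinity glucose transporter, had 523, 585, 566 and 583 CPM in *eif2aΔ* Ribo-Seq, against 487, 370, 411 and 384 CPM in *tma46Δ*, with no overlap (0.46, SE 0.08, FDR 0.0121). *TIP1* (YBR067C), a cell wall mannoprotein, had 532, 614, 640 and 543 CPM in *eif2aΔ* RNA-Seq, against 363, 438, 413 and 402 CPM in *tma46Δ* (0.52, SE 0.08, FDR 0.024). *HXT2* footprints and *TIP1* mRNA are higher in all 4 *eif2aΔ* cultures, replicate 4 included, as for 2.57% of all genes on footprints and 3.31% on mRNA. *HXT2* mRNA was at 0.27 with overlapping groups, and the footprint FDR of *HXT2* without the batch term was 0.0545. The call was lost in 5 of 8 fits with 1 culture less for *HXT2* (FDR 0.0503 to 0.144) and in 6 for *TIP1* (FDR 0.0779 to 0.177).

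**Figure D4:**
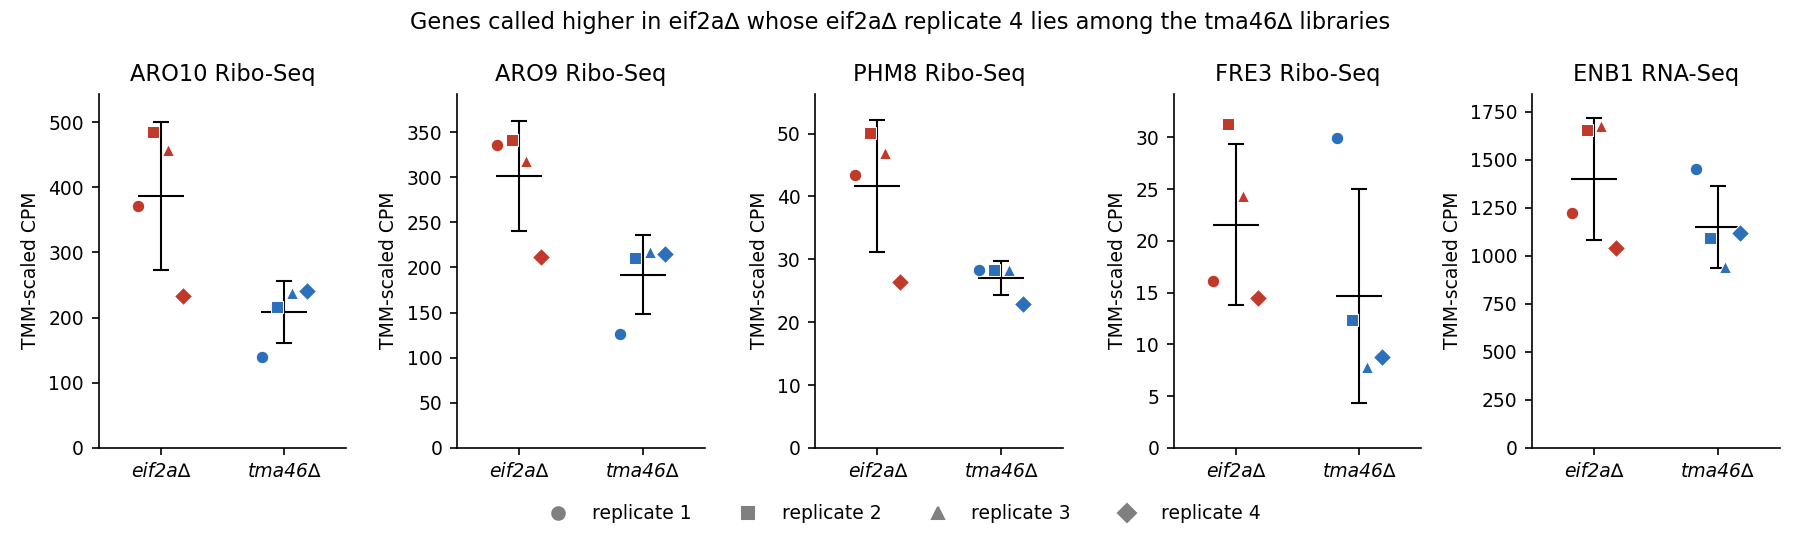
TMM-scaled CPM of 5 genes called higher in *eif2aΔ* (left of each panel) than in *tma46Δ* (right): *ARO10*, *ARO9*, *PHM8* and *FRE3* in Ribo-Seq and *ENB1* in RNA-Seq; symbols are cultures, bars are means and whiskers are 1 SD (n = 4). In every panel *eif2aΔ* replicate 4, the diamond, is the lowest of its strain and lies within the range of the *tma46Δ* cultures, as at 233 CPM for *ARO10* footprints.

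Over all calls other than the deleted genes, replicate 4 lies beyond the *tma46Δ* range on the called side for 5 of 9 genes in RNA-Seq, 9 of 15 in Ribo-Seq and 2 of 2 for RO. Replicates 1 to 3 all do so for 7, 13 and 2 of them. These 3 replicates carried weight in the fold changes behind the calls, while replicate 4 was in the fit with a weight of 0 in the fold change. The matching shares over all genes tested were not counted, so these counts do not measure support for the calls. Its batch held no *tma46Δ* culture, so its batch and its culture cannot be told apart.

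Nearly all iron uptake genes had positive fold changes, but the cultures of each strain spread over a wider range than the difference between the strains. Siderophore uptake genes encode the ARN transporters and FIT mannoproteins that take up iron bound to chelators made by other microbes, and they are switched on by Aft1 when iron is short. All 7 siderophore genes tested were positive in both assays, with a median of 0.58 for mRNA and 0.73 for footprints, against 0.01 and -0.00 over all genes. By edgeR 1 was called on mRNA and 0 on footprints, with 6 of 7 at an unadjusted p under 0.05 in each assay, and DESeq2 called *ENB1* and *ARN1* on mRNA and 0 on footprints. Over all genes tested, 13.8% on mRNA and 13.5% on footprints had an unadjusted p under 0.05. Positive fold changes made up 51.7% and 49.6% of all genes, and the counts for every list below are to be read beside these shares. Per culture, the median level of the list relative to the mean of all 16 RNA-Seq libraries was -0.35, 0.41, 0.52 and -0.57 in *eif2aΔ*, against 0.41, -0.19, -0.60 and -0.14 in *tma46Δ* (log2). Replicates 2 and 3 of *eif2aΔ* are high and replicates 1 and 4 low, while *tma46Δ* replicate 1 is as high as *eif2aΔ* replicate 2. Without the batch term the list medians were 0.28 for mRNA and 0.27 for footprints.

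*ENB1* (YOL158C), the enterobactin transporter, was the called member. It had 1222, 1657, 1677 and 1038 CPM in *eif2aΔ* RNA-Seq, against 1449, 1090, 942 and 1120 CPM in *tma46Δ*, with overlapping groups (0.52, SE 0.10, FDR 0.0434 by edgeR). Among reductive uptake and iron-use genes 22 of 23 were positive on mRNA (median 0.18) and 21 on footprints (median 0.34), and edgeR called *FRE3* footprints alone. At an unadjusted p under 0.05 there were 9 of the 23 on mRNA and 15 on footprints. Without the batch term these medians were 0.03 and 0.15, and in the pair of batch 3 13 of the 23 were positive on mRNA (median 0.04). DESeq2 called *FTR1*, the iron permease, in both assays and *FET3*, its oxidase partner, on mRNA, and gave no FDR for 1 gene on footprints. *FRE3* (YOR381W), a siderophore reductase, had 16.1, 31.3, 24.3 and 14.5 CPM in *eif2aΔ* Ribo-Seq, against 29.9, 12.3, 7.78 and 8.78 CPM in *tma46Δ* (1.22, SE 0.23, FDR 0.03). Neither call held without the batch term, at 0.28 (FDR 0.528) for *ENB1* and 0.45 (FDR 0.747) for *FRE3*. With 1 culture less, that of *ENB1* was lost in 7 of 8 fits and that of *FRE3* in 6. *LSO1* (YJR005C-A), a small ribosome-associated protein whose gene is induced by iron shortage, had 12.8, 64.5, 152 and 7.81 CPM in *eif2aΔ* RNA-Seq, against 73.7, 13.8, 6.74 and 10.7 CPM in *tma46Δ*. Its fold changes of 2.49 (SE 0.55, FDR 0.136) and, in Ribo-Seq, 2.42 (SE 0.53, FDR 0.0681) were not called. The cultures of each strain spread widely, with *eif2aΔ* replicates 2 and 3 and *tma46Δ* replicate 1 far above the others.

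Aft1 recognizes TGCACCC, which occurs on either strand in the 500 bases before the start codon of 102 of 4617 genes (2.21%), 10 of them (0.217%) with 2 or more. *ENB1* has 2 matches and *FRE3* and *LSO1* have 1 each. They are shown because these are the iron genes named, in capitals on the coding strand, at chrXV:21487-21515 and chrXV:21431-21459 for *ENB1* (minus strand), chrXV:1055107-1055135 for *FRE3* (plus) and chrX:448886-448914 for *LSO1* (minus).
ENB1 site A: gtttaaattatTGCACCCaaatgtgatac
ENB1 site B: cggcttacaatTGCACCCctctgtggctt
FRE3: cttttgtaaaaTGCACCCatatctcattt
LSO1: atcgagaatgtTGCACCCttttttccaat
The 12 iron regulators tested, among them *AFT1*, *AFT2* and *TIS11*, had 0 calls in either assay by edgeR or DESeq2, with medians of -0.05 and -0.01 and 3 and 2 genes at an unadjusted p under 0.05. DESeq2 gave no FDR for 1 of the 12 on footprints.

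Respiratory genes leaned the other way. Of the 33 nuclear genes for the respiratory chain and ATP synthase that were tested, 32 were negative in each assay, with medians of -0.33 for mRNA and -0.38 for footprints. Without the batch term the medians were -0.21 and -0.18. By edgeR 0 were called in either assay, with 17 on mRNA and 19 on footprints at an unadjusted p under 0.05, and DESeq2 called *ATP1* on footprints only. DESeq2 gave no FDR for 9 of the 33 genes on mRNA, so it could not call them. The lowest FDR values belonged to *ATP20* on mRNA (-0.71, FDR 0.136) and *ATP1* on footprints (-0.34, FDR 0.0617), both ATP synthase subunits. Per culture, the list median in RNA-Seq was 0.03, -0.28, -0.23 and 0.19 in *eif2aΔ*, against -0.14, 0.18, 0.27 and 0.08 in *tma46Δ*. Replicates 2 and 3 of *eif2aΔ* are the low cultures, the same that are high for siderophore genes, and *tma46Δ* replicate 1 is again on their side. Whether the iron state of the cultures has a part in these levels was not tested. Enzymes of the citric acid cycle were negative for 19 of 22 genes in each assay (medians -0.20 and -0.26, or -0.14 and -0.16 without the batch term). *MDH2* mRNA was the 1 edgeR call, with 8 and 10 genes at an unadjusted p under 0.05, and DESeq2 called *MDH2* mRNA and *ACO1* footprints. DESeq2 gave no FDR for 3 of the 22 genes on mRNA and 1 on footprints.

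**Figure D5:**
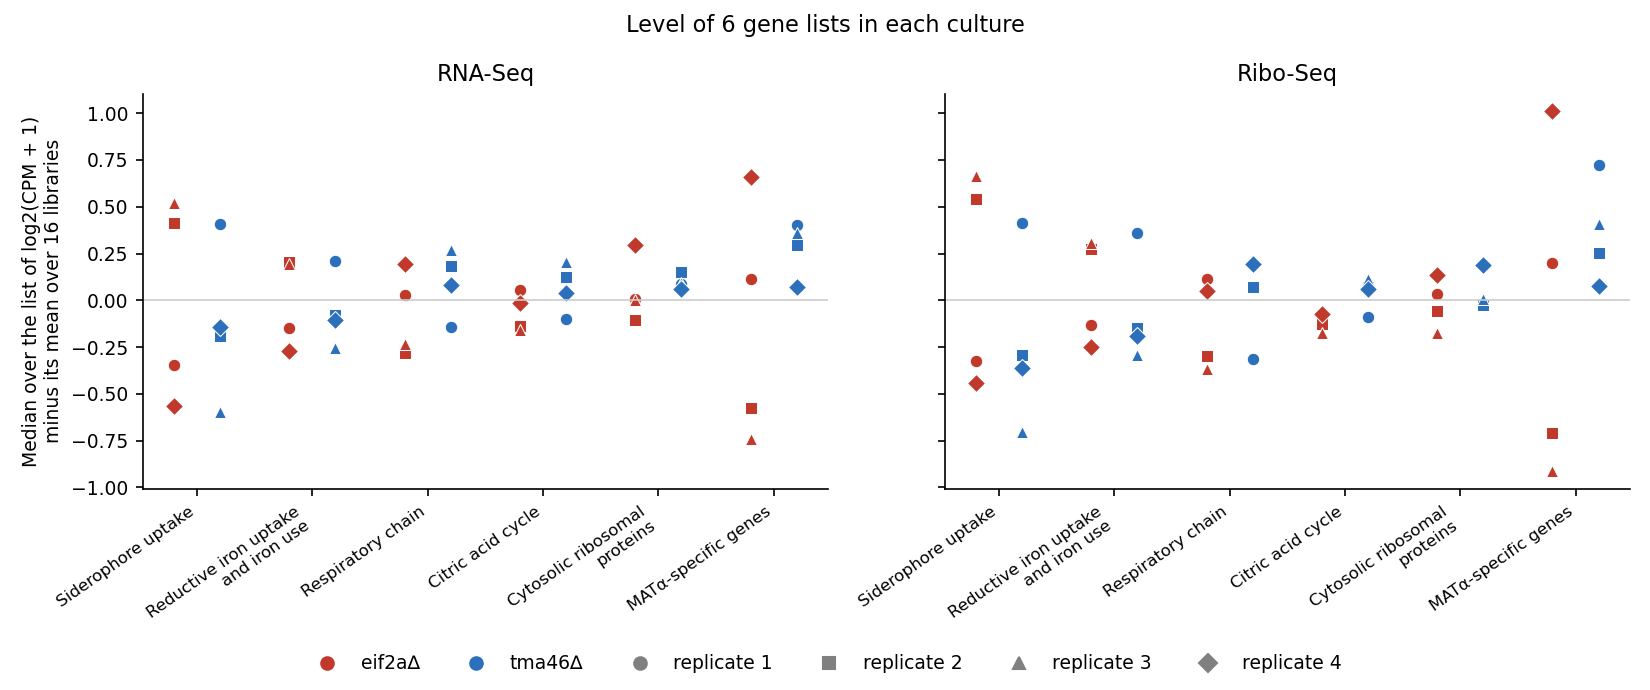
Median level of 6 gene lists in each culture, as log2(CPM + 1) minus the mean over all 16 libraries of the assay (vertical axis), in RNA-Seq and in Ribo-Seq; *eif2aΔ* is left of *tma46Δ* within each list and symbols are cultures. The 2 strains overlap for siderophore uptake, where *eif2aΔ* spans -0.57 to 0.52 and *tma46Δ* -0.60 to 0.41 in RNA-Seq, and for every other list shown.

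Genes of the translation machinery differed little. The 137 cytosolic ribosomal protein genes had 0 calls in either assay by edgeR, with 133 negative on mRNA (median -0.11) and 131 on footprints (median -0.13). Of these 14 and 20 had an unadjusted p under 0.05, beside 13.8% and 13.5% of all genes. DESeq2 called *RPL7B* on mRNA and *RPL29* on footprints. On footprints the same-batch pairs differed, with a median of 0.04 and 91 genes positive in batch 3 and a median of -0.35 and 2 genes positive in batch 5. Without the batch term the medians were -0.05 on mRNA and -0.04 on footprints. Many of these genes have near-identical copies, and reads that map to several places are not in the counts, so single members are uncertain. The 65 ribosome biogenesis genes had 0 calls by edgeR or DESeq2, 11 and 12 genes at an unadjusted p under 0.05, and medians of -0.07 and -0.10, also of opposite sign in Ribo-Seq between the pairs (0.02 and -0.27). Of 61 amino acid biosynthesis genes 43 were negative in each assay (medians -0.06 and -0.09), where 48.3% and 50.4% of all genes were negative. *ARG1* mRNA was the 1 edgeR call, with 13 and 18 genes at an unadjusted p under 0.05, and DESeq2 called *ARG1* in both assays and *ARO3* on mRNA. DESeq2 gave no FDR for 1 of the 61 genes on mRNA and 4 on footprints.

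Other groups of genes showed few calls. For comparison, 51.7% of all genes were positive on mRNA and 49.6% on footprints, and 13.8% and 13.5% had an unadjusted p under 0.05. Of 32 genes in a list of sterol and fatty acid synthesis and its hypoxic regulators and wall proteins, 26 were positive in each assay (median 0.14 in both), with 0 edgeR calls, 8 genes at an unadjusted p under 0.05 in each, and *ERG27* called by DESeq2 on mRNA. Of 27 glycolytic genes 21 were negative on mRNA and 18 on footprints, with 0 calls by either tool and 3 and 7 genes at an unadjusted p under 0.05. The 22 sulfur assimilation genes had 14 and 19 negative members, with 5 and 8 genes at an unadjusted p under 0.05. Among these 22, *MET17* footprints were the 1 call by either tool. The 14 genes for hexose transporters, hexose kinases and glucose repressors had 8 positive in each assay and *HXT2* footprints as the 1 edgeR call, and DESeq2 called *HXT2* footprints and *EMI2* mRNA. At an unadjusted p under 0.05 there were 5 of the 14 in each assay. Among 26 genes of the phosphate regulon and Pho85 cyclins 16 were positive in each assay, and *CLG1* and *PHM8* footprints were called by both tools. Of these 26, 4 on mRNA and 5 on footprints had an unadjusted p under 0.05. Stress genes (24 tested) had 17 and 14 positive, glycogen and trehalose genes (18 tested) 14 and 11, and mitochondrial ribosomal protein genes (56 tested) 11 and 15, all with 0 calls by either tool. Their counts at an unadjusted p under 0.05 on mRNA and on footprints were 6 and 7, 8 and 3, and 6 and 6. The 11 genes for ribosome dormancy and other ribosome-associated proteins also had 0 calls by either tool and 2 and 3 genes at an unadjusted p under 0.05. DESeq2 gave no FDR for some genes of these lists, so it could not call them. On mRNA and on footprints these were 1 and 1 sterol genes, 1 and 2 glycolytic, 3 and 7 sulfur and 3 and 2 hexose genes. They were also 2 and 3 phosphate genes, 2 and 2 stress, 3 and 3 glycogen and trehalose and 6 and 0 mitochondrial ribosomal protein genes.

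The deletions' own pathways were also tested gene by gene. Beside the counts below, 13.8% of all genes on mRNA and 13.5% on footprints had an unadjusted p under 0.05. The 20 factors of initiator tRNA delivery and subunit joining, such as the eIF2, eIF2B and eIF3 subunits, had 0 calls by edgeR, with fold changes from -0.34 to 0.14 for mRNA and -0.21 to 0.39 for footprints. At an unadjusted p under 0.05 there were 2 and 3 of them, and DESeq2 called *TIF11*, which encodes eIF1A, on mRNA. The Rbg GTPases, their partners and ribosome collision factors had 0 calls by either tool among 23 tested genes, with 5 and 4 at an unadjusted p under 0.05. Of these, 17 were positive on mRNA and 15 on footprints (medians 0.03 and 0.09). *RBG1*, the GTPase that Tma46 binds, was at 0.03 for mRNA (FDR 0.874) and 0.12 for footprints (FDR 0.575). Its paralog *RBG2* was at -0.00 and 0.14, and *GIR2*, the partner of Rbg2, at 0.09 and 0.15. The 13 mRNAs with reported internal initiation had 0 calls by either tool and 3 and 2 genes at an unadjusted p under 0.05, *URE2* being at 0.27 for mRNA (FDR 0.258) and 0.21 for footprints (FDR 0.383). DESeq2 gave no FDR for 3 of the 13 in each assay, so it could not call them. The 24 mRNAs with upstream reading frames had 0 calls by either tool and 3 and 4 genes at an unadjusted p under 0.05. DESeq2 gave no FDR for 2 of the 24 on mRNA and 4 on footprints. Among these 24 mRNAs *GCN4*, whose translation depends on several upstream frames, had 38.5, 34.4, 38.4 and 39.4 CPM in *eif2aΔ* Ribo-Seq, against 31.2, 33.3, 53.5 and 43.1 CPM in *tma46Δ*, an overlap (-0.37, SE 0.16, FDR 0.322). Without the batch term *GCN4* footprints were at -0.06 (edgeR FDR 0.948).

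*SBP1* (YHL034C), an RNA-binding protein that represses translation, had 490, 458, 495 and 507 CPM in *eif2aΔ* RNA-Seq, against 583, 598, 591 and 550 CPM in *tma46Δ*. These groups do not overlap, but the change of -0.24 (SE 0.08, FDR 0.244) was not called, and its RO difference was 0.09 (SE 0.11). Against *wt*, in contrasts that share the *wt* libraries, the RO of *SBP1* was at 0.56 in *eif2aΔ* (SE 0.11, FDR 0.0436) and 0.46 in *tma46Δ* (SE 0.09, FDR 0.292).

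MATα-specific genes were negative in all 4 cases in both assays, with medians of -0.41 for mRNA and -0.51 for footprints (-0.28 and -0.17 without the batch term), 0 calls by edgeR or DESeq2 and 1 gene at an unadjusted p under 0.05 in each assay. Their list medians per culture were 0.12, -0.57, -0.74 and 0.66 in *eif2aΔ* RNA-Seq, against 0.40, 0.29, 0.36 and 0.07 in *tma46Δ*. The *eif2aΔ* cultures lie on both sides of all *tma46Δ* cultures, with replicate 4 highest and replicate 3 lowest.

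Apart from *YGR054W*, the largest called falls in Ribo-Seq belonged to 2 small nucleolar RNAs, which are not translated. *snR86* had 8.22, 7.50, 4.11 and 26.8 CPM in *eif2aΔ*, against 26.3, 95.8, 27 and 105 CPM in *tma46Δ* (-2.81, SE 0.51, FDR 0.0209). *snR31* had 10.5, 5.00, 5.14 and 10.6 CPM in *eif2aΔ*, against 9.53, 13.8, 12.4 and 230 CPM in *tma46Δ* (-3.23, SE 0.65, FDR 0.0459). The *snR31* difference rests on *tma46Δ* replicate 4, without which it was at -0.11 (FDR 0.989), and without that culture *snR86* was at -1.33. Leaving out *eif2aΔ* replicate 3, its partner in batch 5, also took both RNAs to -0.11 and -1.33 (*snR86* FDR at most 0.674 without either culture), and both calls were also lost without *tma46Δ* replicate 2. Small RNAs took 0.411% to 0.625% of the counts in *eif2aΔ* Ribo-Seq and 0.583% to 1.76% in *tma46Δ* Ribo-Seq, and their part in these changes was not tested. In RNA-Seq *snR86* was at -0.24 and *snR31* at -0.10, neither called.

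Lysine and arginine, the residues Tma46 and Rbg1 are known for, were counted in the proteins of the called genes. Over all 4617 tested nuclear coding genes the median share of these residues was 11.9%. It was 9.92% over the 7 coding genes called higher in *eif2aΔ* Ribo-Seq and 10.3% over the 6 called lower, deleted genes aside, with 5.53% in *CLG1* and 10.9% in *GDS1*. The 76 genes with at least 8 lysine or arginine residues within 10 had median fold changes of 0.05 for mRNA, -0.06 for footprints and -0.07 for RO. Across genes the changes in the 2 assays were related, with a Pearson r of 0.54 and a Spearman rho of 0.47 over 4623 genes, which are not independent replicates and share cultures. Short and long genes shifted in opposite directions between the 2 same-batch pairs. The median RO difference of the shortest 10% of genes was 0.20 in batch 3 and -0.26 in batch 5, and that of the longest 10% was -0.22 and 0.18. No chromosome stood apart, as the 16 chromosome medians ran from -0.01 to 0.02 for mRNA and -0.04 to 0.06 for footprints.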

How the data were processed

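Per the submitters' processing notes and the methods, reads of the 32 libraries were trimmed (cutadapt 2.10), Ribo-Seq reads were deduplicated, rRNA reads were removed (Bowtie2, given as 1.2.3) and the rest was mapped to R64 (STAR 2.7.9a). The authors deposited unnormalised counts of uniquely mapped sense-strand reads per gene, used here before any batch correction. Reads mapping to several places were not counted and made up 6.16% to 7.26% of RNA-Seq reads and 46.6% to 54.1% of Ribo-Seq reads in both strains. The deposited table had 0 columns of other samples. RefSeq gave symbols for 5956 of 7036 identifiers.

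Genes with 10 CPM in at least 4 libraries of each assay (4625) were fitted with edgeR 4.0.16 (quasi-likelihood, TMM, R 4.3.3) with terms for strain and batch over the 16 libraries of an assay, and RO over all 32 with a term per culture. The study removed batches with ComBat-seq, run here as an alternative (sva 3.50.0), as were DESeq2 1.42.0, other scalings, filters, sample sets and each culture left out. DESeq2 gave no FDR for some genes, which it thus could not call. SE is the fold change over the square root of F. RO levels per culture are log2 of footprint over mRNA, each as CPM plus 1. The code was tested on simulated data. Replicates of 1 strain differed by more than counting noise (chi-square per degree of freedom 2.85 to 26.2 over 24 pairs).

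Named genes were the deleted genes and their neighbours, up to 10 called genes in each direction per assay and 5 for RO by absolute fold change, *CLG1*, *GDS1*, *LSO1*, *GCN4* and *SBP1*, up to 4 called members of each gene list, and members on which a statement about a list turns. The strains compared, the gene lists and the motifs were chosen with earlier results of these data known. Replicates are described only by number and batch, so p-values measure the spread between these libraries, which may be technical. Sequences are from the R64 reference with RefSeq coordinates.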

Additional observations from a re-analysis of the deposited data

Results flagged for a closer look

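Among 142 groups of 4 cultures that were examined, 10 had 1 culture far from the other 3, 4 of them in *eif2aΔ* and 6 in *tma46Δ*. Chance alone gives about 1 in 20. The measure is the gap between that culture and its nearest neighbour as a share of the range of the group.

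For *LSO1*, *tma46Δ* replicate 1 stood apart in RNA-Seq (0.894, with 73.7 CPM and 13.8 CPM in the next culture) and in Ribo-Seq (0.903, with 50.3 CPM and 9.85 CPM in the next). The same culture was low for *ARO9* footprints (0.926, with 126 CPM, the nearest being 210.1 CPM). In *tma46Δ* replicate 4, *snR31* was high in Ribo-Seq (0.981, with 230.2 CPM and 13.8 CPM in the next), *PHM8* footprints were low (0.982, with 22.9 CPM and 28.3 CPM in the next), and the median of the cytosolic ribosomal protein genes was high in Ribo-Seq (0.847, at 0.19 on the log2 scale).

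In *eif2aΔ*, replicate 1 had the largest RNA-Seq total (0.849, with 5567240 counts and 4708903 in the next) and the highest RO of *GCN4* (0.847, at -5.44, the next being -5.70). Replicate 2 had the lowest RO of *GDS1* (0.866, at -0.14, the next being 0.13) and the highest *MCO32* level in Ribo-Seq (0.862, at 1.88 CPM, the next being 1.37 CPM), a gene below the filter on low counts. The RO of *GDS1* in *eif2aΔ* replicate 2 remained above that of every *tma46Δ* culture.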

How the results depend on the processing

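There were 11 calls on mRNA, 17 on footprints and 2 on RO, with both deleted genes in each of the first 2 counts, and the counts below keep that order. Without the batch term they numbered 17, 19 and 2, and with *eif2aΔ* replicate 4 also left out, an alternative chosen after seeing the data, 20, 23 and 2. The 8 libraries of the *eif2aΔ* and *tma46Δ* strains per assay alone gave 5, 8 and 3, those with *wt* added 33, 133 and 4, and the pairs of batches 3 and 5 alone 141, 43 and 26. After ComBat-seq with the strain given as group the counts were 949, 625 and 280. Without the filter they were 12, 52 and 50, and by DESeq2 32, 27 and 2. Leaving out 1 culture at a time gave 2 to 11 calls on mRNA, 7 to 50 on footprints and 2 to 10 on RO. The 2 on mRNA and the 7 came without *eif2aΔ* replicate 3 or *tma46Δ* replicate 4. The 50 came without *eif2aΔ* replicate 1 and the 10 without *eif2aΔ* replicate 2. The 11 came only without *eif2aΔ* replicate 4, which has a weight of 0 and leaves the contrast as it was. All other fits gave at most 5 calls on mRNA (without *tma46Δ* replicate 3). The cause of these differences was not tested. None of the 26 calls other than the deleted genes changed sign under these settings. Of these calls, those of *CLG1* and *GDS1* in Ribo-Seq and RO, 4 in all, held under every setting, and 5, with *URA2* in Ribo-Seq added, held without any 1 culture.

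Deviations of same-numbered cultures had correlations of -0.39 to -0.14 on mRNA and -0.39 to 0.086 on footprints, which gave no sign of a pairing by number. Cultures of the same batch had correlations of -0.22 to 0.34 on mRNA and -0.032 to 0.28 on footprints over 2 pairs. Cultures sharing neither number nor batch ran from -0.31 to 0.39 on mRNA and from -0.28 to 0.33 on footprints. These ranges cover the same-batch values, so the correlations do not show a pairing by batch either. A replicate block in place of the batch term gave 15, 15 and 2 calls. Fold changes under about 0.5 were seldom called at the median error of 0.11 to 0.16.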
